A study of Rattus norvegicus with 36 samples.

Results

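Interleukin 6 (IL-6) signaling was followed through the genes Il6, Il6r, Il6st, Lif, Osmr, Socs3 and Stat3, as every probe set annotated with a single symbol equal to a member. These were 10 probe sets of 6 genes, out of 31042 probe sets and 14217 genes analysed: 1 each for Il6, Il6r, Lif and Socs3, 4 for Il6st and 2 for Stat3. No probe set analysed here carried the symbol Osmr, so that gene was not analysed. The arrays came from vocal fold (VF) mucosa of male Fischer 344 rats, injured by bilateral stripping of the mucosa at 120 days of age, and from fibroblasts grown out of such mucosa. Mucosa was taken post-injury (PI) after 3, 14 or 60 days, at ages of 123, 134 and 180 days, with 5 PI arrays at each time. Age-matched uninjured controls gave 3 arrays at 3 days, 3 at 14 days and 2 at 60 days, and each mucosa array held the pooled bilateral mucosae of 4 rats. Fibroblast arrays (passage 1, 80% confluence, 1 rat each) comprised 3 from naive mucosa, 4 from scar mucosa, and 3 each of scar fibroblasts given siRNA against gp46 (Serpinh1, a collagen chaperone) or scramble siRNA. All fibroblast donors were 180 days old at harvest, and the scar and siRNA cultures came from mucosa 60 days PI. Both siRNAs were used at 50 nM for 1 h in liposomes, with 24 h of culture afterwards. All cultures were explant outgrowths kept in serum, and the siRNA and untransfected cultures differed in handling as well as in siRNA. Because mucosa pools and cultures are bulk samples, fewer cells of a type and less RNA per cell cannot be told apart. Arrays of a group were labelled as biological replicates, and no source says whether same-numbered siRNA cultures came from the same rat.

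IL-6 binds its receptor IL-6R, and the pair engages gp130, the shared signal-transducing chain encoded by Il6st. Gp130 carries Janus kinases (JAKs), which phosphorylate the transcription factor STAT3, and STAT3 switches on acute phase and growth genes together with Socs3, whose product shuts the receptor down again. LIF and oncostatin M signal through the same gp130 paired with other chains. IL-6R is found on leukocytes and hepatocytes, whereas gp130 is nearly ubiquitous, and cells without IL-6R can respond to IL-6 bound to soluble receptor. In healing tissue IL-6 is known as an early signal from leukocytes, epithelium and fibroblasts.

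The promoter of Il6 is shown because Il6 had the largest injury effect of the members. In the RefSeq sequences (build GRCr8) promoter windows were found for 6 of the 7 members, all but Lif. The stretch below lies at chr4:5894596-5894755 on the minus strand, from 180 to 21 bases before the annotated start of Il6, with 3 motif matches in capitals in the order CRE, C/EBP and NF-kB.
Il6 promoter: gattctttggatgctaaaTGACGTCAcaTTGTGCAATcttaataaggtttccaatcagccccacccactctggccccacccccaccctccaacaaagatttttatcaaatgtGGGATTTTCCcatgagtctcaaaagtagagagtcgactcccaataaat
Shares of motifs were counted in 33469 promoter windows of equal length, which are longer than the stretch shown. The CRE letters TGACGTCA begin at -162 from the start and occur, on either strand, in 1.83% of these windows. The C/EBP letters TTGNGCAAT begin at -152 and occur in 0.604% of them, and the NF-kB letters GGGNNTTTCC begin at -68 and occur in 1.53%. The STAT letters TTCNNNGAA, present in 8.87% of all promoters, were absent from all 6 member windows. None of the other 5 member windows held any of these motifs. The letters were chosen with the Il6 sequence in view, no match overlapped another, and no array measured binding.

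A set of 3 mucosa arrays deviated from their group means in a shared direction, namely replicate 5 at 3 days PI, replicate 3 of the 14-day controls and replicate 4 at 60 days PI, with correlations of deviations over all probe sets of 0.40 to 0.58. Values without them are given for most calls that changed and for Il6r and Socs3 at 60 days PI. Mucosa arrays carried epithelial, endothelial, macrophage and skeletal muscle markers alongside those of fibroblasts. In cultures the epithelial markers were at a mean log2 level of 5.64 to 5.98 per array, against 12.6 to 13.5 in mucosa, and fibroblast markers were at 12.7 to 13.2. Muscle markers ranged from 5.21 to 10.1 between cultures.

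At 3 days PI the ligand and the feedback inhibitor both rose, while the receptor chains and STAT3 were not called. In all, 2 of 10 member probe sets were called in injured against control mucosa, against 23% of all probe sets, so the share of members called was near the background. Called means a Benjamini-Hochberg adjusted p under 0.05 in limma over all probe sets, and all levels are log2 RMA signals.

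Il6 signals at 3 days PI were 6.99, 5.97, 6.35, 5.55 and 5.18, and those of the 3 controls were 4.10, 4.93 and 4.15. Every PI array was above every control array, although the PI arrays themselves spread over more than a log2 unit. The difference was 3.06-fold (95% interval 1.96 to 4.77, adjusted p = 0.000593). Mean Il6 signal over the mucosa arrays exceeded that of 15.2% of probe sets, and without detection calls the control signal was not shown to be above background, so this fold is one over a low signal of unknown background.

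Socs3, the STAT3-induced inhibitor of the gp130 complex, had signals of 7.99, 7.73, 7.97, 7.99 and 7.59 at 3 days PI. The control values were 6.86, 7.07 and 6.91, again with no overlap. Socs3 was 1.88-fold higher (95% interval 1.33 to 2.65, adjusted p = 0.00837). Groups did not overlap for 28.4% of all probe sets in this comparison.

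**Figure D1:**
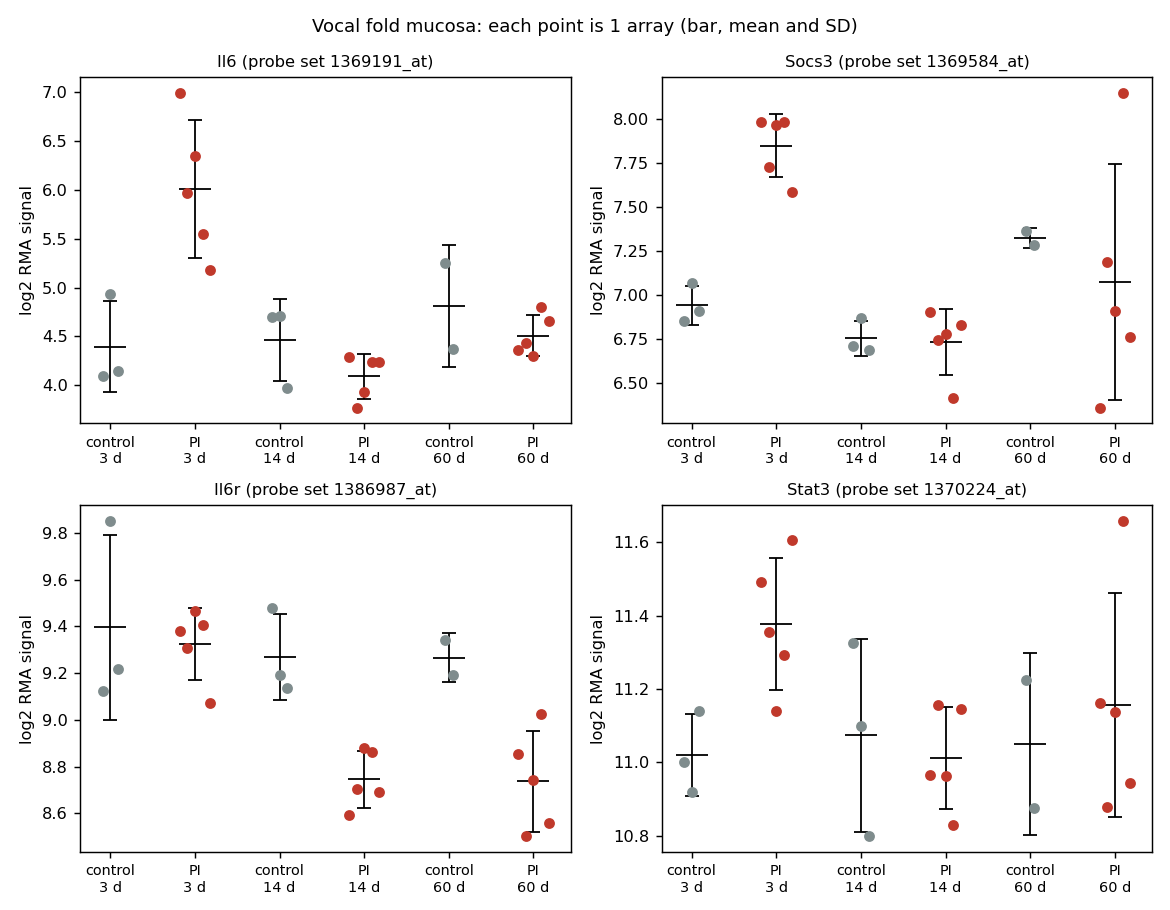
Log2 RMA signal (y axis) of Il6, Socs3, Il6r and 1 Stat3 probe set in the 6 mucosa groups (x axis), with 1 point per array and bars for the mean and SD. Il6 and Socs3 stand above the controls in all 5 arrays at 3 days PI, and Il6r lies below the controls in all 5 arrays at 14 and at 60 days PI.

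No probe set of the signal transducers was called at 3 days PI. Stat3, the transcription factor itself, gave different values for its 2 probe sets: 1370224_at had a log2 fold change of 0.36 (SE 0.15, adjusted p = 0.0982) and 1371781_at one of -0.01 (SE 0.10). The 1370224_at signals were 11.14 to 11.61 at 3 days PI and 10.92 to 11.14 in controls, meeting at 1 value. Without the 3 deviating arrays this probe set was called, at a log2 fold change of 0.30 (adjusted p = 0.0458). It was also called with that time point fitted alone (0.36, adjusted p = 0.0459) and with the controls of all 3 ages pooled (0.33, adjusted p = 0.0271).

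The 4 probe sets of Il6st, which encodes gp130, had log2 fold changes of -0.23 to -0.02 at 3 days PI and none was called. The strongest was 1371926_at (-0.23, SE 0.11, adjusted p = 0.152), which was called at -0.28 without the 3 deviating arrays (adjusted p = 0.00729). Without those arrays, 4 member probe sets were called at 3 days PI, namely Il6, Socs3, this Il6st probe set and Stat3 1370224_at, where 31.7% of all probe sets were called.

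Il6r signals at 3 days PI were 9.07 to 9.47 against 9.12 to 9.85 in controls. The log2 fold change was -0.07 (95% interval -0.37 to 0.23). Lif, a gp130 cytokine, had signals of 4.36 to 4.50 against 4.38 to 4.57, and its log2 fold change was -0.06 (95% interval -0.26 to 0.14). Mean Lif signal in mucosa exceeded that of 11.5% of probe sets and was likewise not shown to be above background. For both genes the PI arrays lay within or beside the range of the controls.

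**Figure D2:**
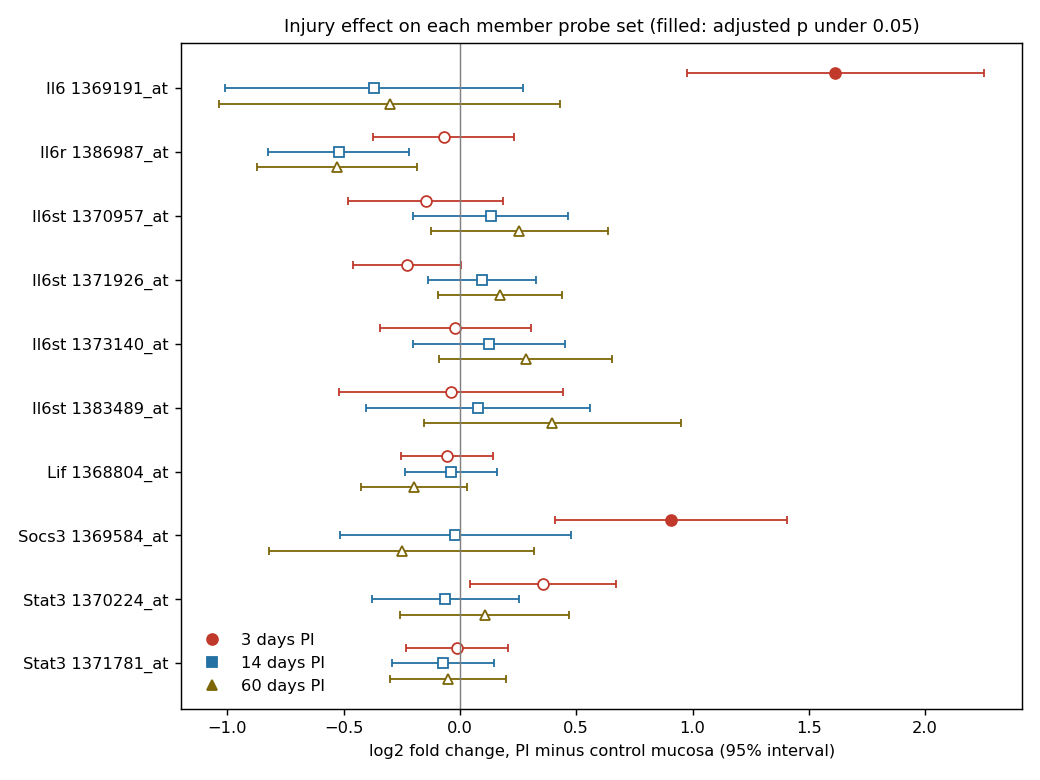
Log2 fold change of PI over control mucosa (x axis, bars 95% interval) for the 10 member probe sets (y axis) at 3, 14 and 60 days PI. Filled symbols, Il6 and Socs3 at 3 days PI, mark an adjusted p under 0.05.

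At 14 days PI no member probe set was called, against 1.92% of all probe sets. Il6 signals overlapped those of the controls: 4.29, 3.77, 3.93, 4.24 and 4.23 at 14 days PI and 4.70, 4.71 and 3.98 in controls. Socs3 was at 6.42 to 6.90 in PI arrays and 6.69 to 6.87 in controls.

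The member set apart from its controls at 14 days was Il6r, the ligand-binding chain. Its signals were 8.59, 8.71, 8.88, 8.86 and 8.69 at 14 days PI, against 9.48, 9.19 and 9.14 in controls. All 5 PI arrays were below all controls, a separation seen for 11.2% of all probe sets. The level was 30.4% lower, a log2 difference of -0.52 (SE 0.15) that missed the threshold over all probe sets (adjusted p = 0.0707). The adjusted p for this gene ranged from 0.00216 to 0.34 over the alternatives, and it was 0.0468 without the 3 deviating arrays.

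At 60 days PI no member was called, against 0.0387% of all probe sets, and only 2 control arrays were available. The labels and the methods differ on the number of PI and control arrays at this time, so 1 array labelled PI may be a control. The labels were followed. Il6r signals were 8.85, 8.50, 8.74, 9.03 and 8.56, below both controls at 9.34 and 9.19. Groups did not overlap for 11.7% of all probe sets here. Its difference of -0.53 (SE 0.17, adjusted p = 0.326) had the size seen at 14 days. Without the 3 deviating arrays it was -0.60 (adjusted p = 0.157). With the controls of all 3 ages pooled the adjusted p was 0.00296 at 14 days and 0.00315 at 60 days.

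Il6 signals at 60 days PI were 4.30 to 4.80, and the controls were 5.25 and 4.37. Socs3 signals were 6.36, 7.19, 6.91, 8.15 and 6.77, against 7.37 and 7.29 in controls. The value of 8.15 came from replicate 4, one of the 3 deviating arrays, in which all 4 Il6st probe sets were also the highest of the group. Without the deviating arrays the Socs3 difference at 60 days was -0.52 (adjusted p = 0.272), against -0.25 with them (adjusted p = 0.859).

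The 4 Il6st probe sets had log2 fold changes of 0.17 to 0.40 at 60 days PI. All 5 PI arrays were above both controls for 1373140_at (11.35 to 12.25 against 11.32 and 11.34, adjusted p = 0.761) and for 1383489_at (10.20 to 11.33 against 10.07 and 10.18, adjusted p = 0.776), with replicate 4 highest in both. With Il6r, 3 member probe sets did not overlap at this time.

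Comparing the injury effects themselves, Il6 was higher at 3 than at 14 days by 1.98 on the log2 scale (SE 0.43, adjusted p = 0.00771), where 6.58% of all probe sets were called. Against 60 days the difference was 1.92 (SE 0.47, adjusted p = 0.0105), with 11.4% of probe sets called. Without replicate 1 of the 60-day controls the latter was 1.48 and was not called (adjusted p = 0.123).

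The Socs3 injury effect was larger at 3 than at 60 days by 1.16 (SE 0.36, adjusted p = 0.0432). This call was lost in 11 of 15 fits that left out a single array, with adjusted p up to 0.161. Against 14 days the Socs3 difference was 0.93 (SE 0.34, adjusted p = 0.112), and without the 3 deviating arrays it was 1.03 and was called (adjusted p = 0.00435). The Il6st 1371926_at effect was not called in either comparison. Without those arrays it was called, with a log2 difference of -0.39 between 3 and 14 days (adjusted p = 0.0252) and of -0.34 between 3 and 60 days (adjusted p = 0.0393). No difference between the injury effects at 14 and 60 days was called for a member, where 0.0548% of probe sets were called.

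Across the 3 PI groups 4 member probe sets changed by the moderated F test in limma, against 34% of all probe sets. Il6 (adjusted p = 2.08e-05), Il6r (0.00092), Socs3 (0.000702) and Il6st 1371926_at (0.0125) were called. Mean Il6r levels were 9.33 at 3 days PI, 8.75 at 14 days and 8.74 at 60 days. Il6st 1371926_at moved the other way in time, from a mean of 11.23 at 3 days to 11.47 and 11.61. Without the deviating arrays its means were 11.18, 11.47 and 11.50. In that fit 6 member probe sets were called, against 41.7% of all probe sets, and Stat3 1370224_at was among them (adjusted p = 0.0275). Across the 3 control ages no member was called by limma (0% of all probe sets), with 5.84% of probe sets at an unadjusted p under 0.05.

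Some markers of cell types also differed between PI and control mucosa. At 3 days PI 4 of 5 neutrophil markers rose, with a mean log2 level per array of 6.36 to 8.26 against 5.45 to 6.18 in controls. Of 8 fibroblast markers 5 rose and of 7 skeletal muscle markers 6 fell, while 1 of 8 macrophage markers rose. Of 6 lymphocyte markers 1 rose and 1 fell, of 6 endothelial markers 2 rose, and of 7 epithelial markers 2 rose and 1 fell. At 60 days PI the macrophage markers were at 9.18 to 10.3, below the controls at 10.6 to 11.0, although none of the 8 was called. At 14 days the macrophage markers were at 10.1 to 10.5 against 10.4 to 10.7, with overlap, and none was called. The part of cell composition in the Il6, Socs3 and Il6r results was not tested.

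The genes with patterns most like each member over the 23 mucosa arrays were named by the highest Pearson r, a description in which the arrays share the group differences. They were Il24 (0.93) and Rcl1 (0.92) for Il6, Arhgap25 and Cd244l1 (both 0.91) for Il6r, and Csf3r and Il4r (both 0.91) for Socs3. Csf3r encodes the G-CSF receptor of neutrophils and was among the neutrophil markers, and Il4r was among the target genes described next. For Il6st they were Cd2ap and Dock9 (both 0.92), for Stat3 Eif4g1 (0.87) and Arrdc3 (0.84), and for Lif Hp (0.68) and Ecel1 (0.67).

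Other genes of the pathway were taken from 5 lists with 52 measured genes, each read by 1 representative probe set. At 3 days PI 15 of the 52 rose and 5 fell. Most of those that rose were targets: of 25 textbook STAT3 and IL-6 targets 11 rose and 1 fell, where 11% of all probe sets rose and 12% fell. The lists were chosen with earlier results of these data known, so their counts are descriptions. The median log2 fold change of the targets was 0.32, and that of all probe sets was -0.01. With array weights 16 targets rose, without replicate 3 of the 3-day controls 7 did, and in a lognormal-normal model 5 did. The number of all probe sets called also moved. It was 45% in either direction with array weights, against 23% in the main fit. With 1 array left out it was 4960 to 7069, against 7135 in the main fit.

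A2m, the protease inhibitor that marks the acute phase in rats, was at 9.69 to 10.03 at 3 days PI and at 7.17 to 7.78 in controls. The groups lay far apart, and the difference was 5.11-fold (adjusted p = 4.58e-07 by limma). Timp1, an inhibitor of matrix metalloproteinases, was 3.32-fold higher (12.0 to 13.2 against 10.8 to 11.7, adjusted p = 0.000364). Lbp, the lipopolysaccharide-binding acute phase protein, was 1.98-fold higher (adjusted p = 0.00108).

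The angiogenic factor Vegfa was the target that fell, by 0.69 on the log2 scale (SE 0.13). Serpina3n, an acute phase serpin, turned with time. It was 1.92-fold higher at 3 days PI (adjusted p = 0.025), and at 14 days it was at 8.09 to 9.06 against 9.95 to 10.7 in controls, 3.36-fold lower (adjusted p = 0.00216). At 60 days it was at 9.39 to 9.87 against 10.4 and 11.3, a log2 difference of -1.19 that was not called (adjusted p = 0.283). Serpina3n was the single gene of the 52 called at 14 days, and none was called at 60 days.

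**Figure D3:**
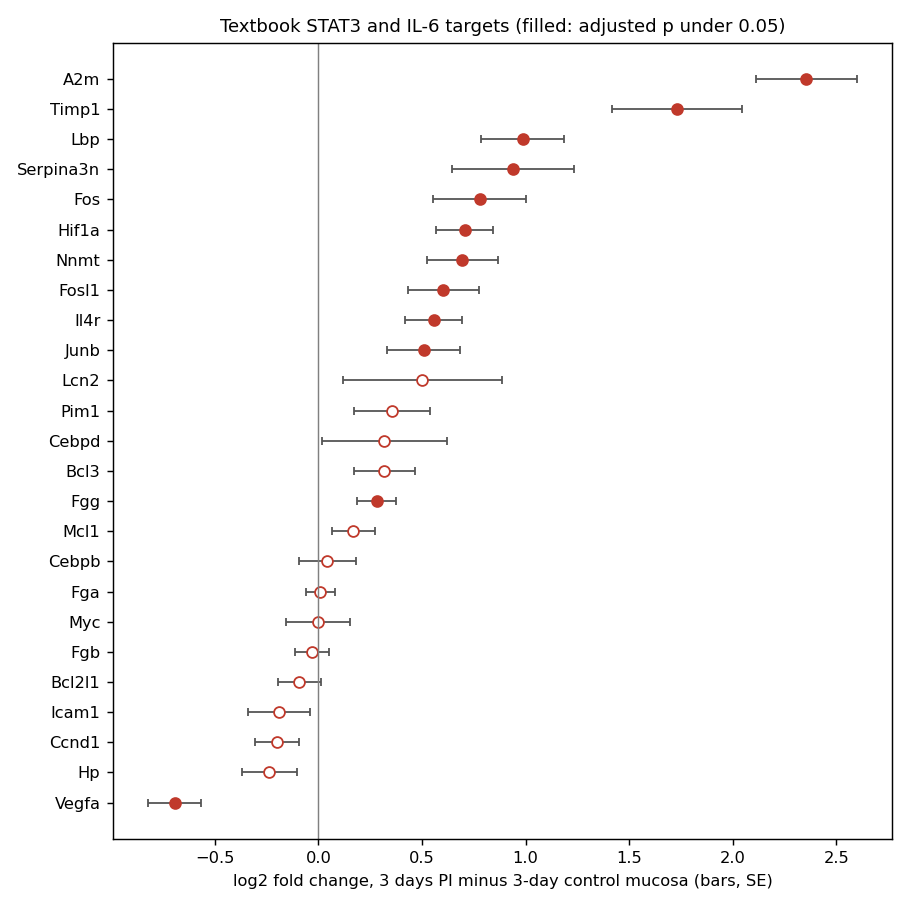
Log2 fold change at 3 days PI over control mucosa (x axis, bars SE) of the 25 target genes (y axis), filled where the adjusted p was under 0.05. A2m and Timp1 lead the 11 genes that rose, and Vegfa is the 1 gene that fell.

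Among the signaling genes, of 10 kinases, STATs and adaptors 2 rose and 1 fell at 3 days PI. Jak2, a kinase carried by gp130, was at 10.1 to 10.4 in PI arrays and 8.49 to 9.20 in controls, 2.58-fold higher (adjusted p = 0.000418). Jak3, the kinase of lymphoid cytokine receptors, was 1.54-fold higher, and the phosphatase gene Ptpn11 fell by 0.33 on the log2 scale.

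Of 6 other ligands Ebi3, a subunit of IL-27, was 2.02-fold higher, Il11 was 1.30-fold higher and Ctf1, which encodes cardiotrophin 1, fell by 0.54 on the log2 scale. Of 4 other receptor chains Il11ra1, the IL-11 receptor, fell by 0.58. Of 7 negative regulators besides Socs3 the STAT inhibitor gene Pias1 fell by 0.38, and the other 6, including Socs1 and Socs2, were not called.

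Against mucosa, cultured fibroblasts had much higher Il6 and much lower Il6r signals, higher Socs3 and Lif, and no called difference in Il6st or Stat3. Naive fibroblasts were set against control mucosa of the same animal age, a comparison in which culture, RNA input and the number of rats per array differ together. Of 10 member probe sets 3 were higher and 1 was lower, against 35.9% and 21% of all probe sets and 56.9% in either direction. Groups did not overlap for 74.5% of all probe sets.

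Il6 signals were 11.2, 10.8 and 10.3 in naive fibroblasts and 5.25 and 4.37 in mucosa. The difference was 62.3-fold (95% interval 28.0 to 139, adjusted p = 1.98e-10), over a mucosa signal not shown to be above background. Il6r was the member that fell, from 9.34 and 9.19 in mucosa to 6.30, 6.03 and 6.01 in fibroblasts, 8.91-fold lower (95% interval of the log2 difference -3.64 to -2.67, adjusted p = 1.16e-12).

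Socs3 signals were 9.16, 9.11 and 8.82 in naive fibroblasts and 7.37 and 7.29 in mucosa, 3.25-fold higher (adjusted p = 0.000215). Lif was 1.49-fold higher (5.06 to 5.38 against 4.56 and 4.63, adjusted p = 0.000593), over a mucosa signal not shown to be above background. Mean Lif signal over the fibroblast arrays exceeded that of 19.6% of probe sets. The 6 probe sets of Il6st and Stat3 were not called, with log2 fold changes of -0.19 to 0.48. The highest was Il6st 1383489_at (0.48, adjusted p = 0.134), which was called with array weights (adjusted p = 0.0249), with the 2 groups fitted alone (adjusted p = 0.0114) and in the lognormal-normal model. The median log2 fold change of all probe sets was 0.15 in this comparison.

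All 8 macrophage, 6 lymphocyte, 6 endothelial, 7 epithelial and 7 skeletal muscle markers were lower in the cultures, as were 3 of 5 neutrophil markers. Of 8 fibroblast markers 6 were higher. The macrophage markers were at a mean log2 level of 5.78 to 6.06 in naive fibroblasts and 10.6 to 11.0 in control mucosa, and their part in the Il6r difference was not tested.

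Of the 25 targets 13 were higher and 4 lower in naive fibroblasts. The fibrinogen chain gene Fgg was 6.32-fold higher over a mucosa signal of 4.30 and 4.37, not shown to be above background. The immediate early gene Fos was 6.15-fold and Vegfa 5.31-fold higher. Of 7 negative regulators 2 were higher and 4 lower, including Ptpn6, a phosphatase of blood cells, at 13-fold lower and Socs2 at 4.27-fold lower.

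Of the other ligands Clcf1 was 2.31-fold higher, over a mucosa signal of 3.42 and 3.50 not shown to be above background. Ctf1 was 1.63-fold higher and Ebi3 2.59-fold lower. Of 4 receptor chains 3 were higher, by 1.48-fold for Cntfr, 1.35-fold for Il11ra1 and 1.31-fold for Lifr. Of 10 kinases, STATs and adaptors 4 were higher and 2 lower, with Stat5a (1.87-fold higher), Gab1 (1.63-fold lower) and Jak3 (1.55-fold higher) moving most.

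**Figure D4:**
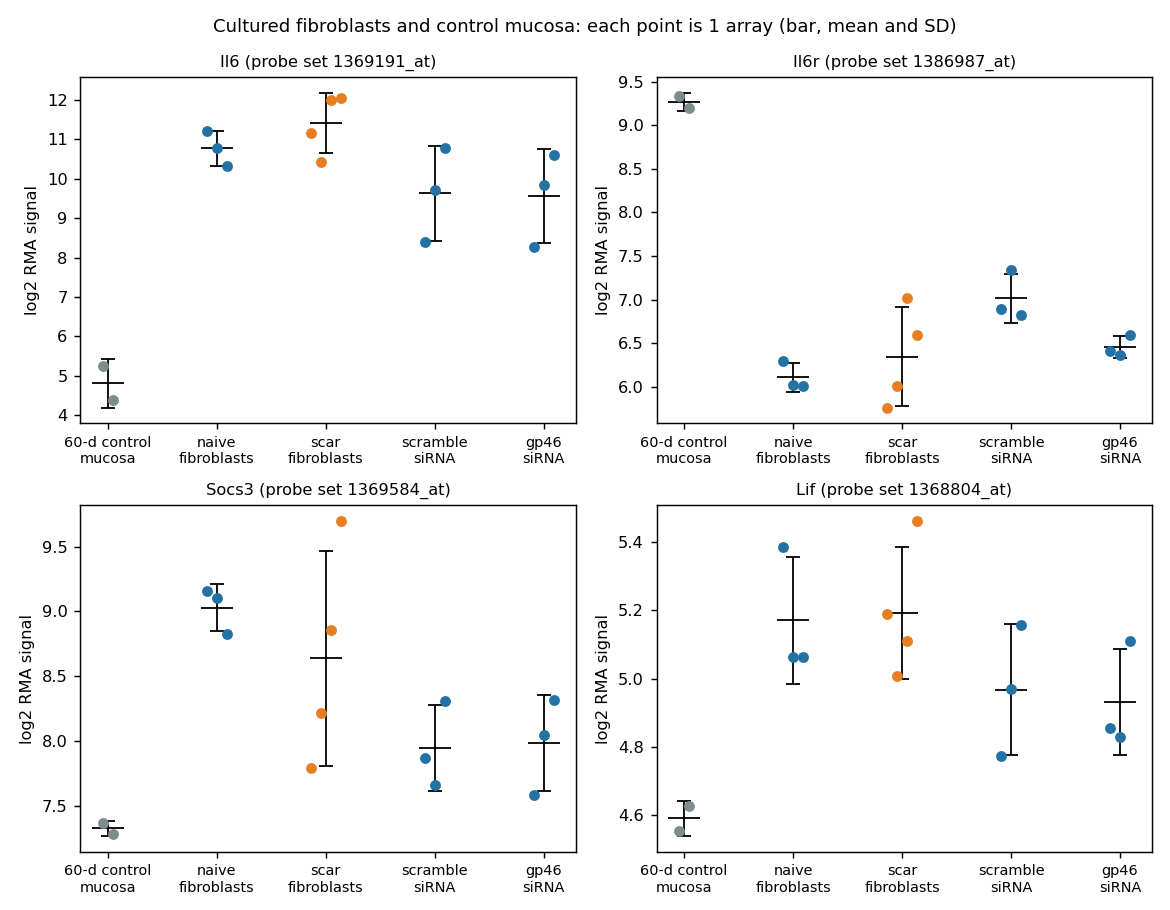
Log2 RMA signal (y axis) of Il6, Il6r, Socs3 and Lif in 60-day control mucosa and the 4 fibroblast groups (x axis), with 1 point per array and bars for the mean and SD. All cultures lie above mucosa for Il6, Socs3 and Lif and below it for Il6r.

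Ordered by mean, Il6 was highest in scar fibroblasts (11.41), then naive (10.77), scramble siRNA (9.63) and gp46 siRNA fibroblasts (9.57), with overlapping neighbours. A gap followed to 3 days PI (6.01), and the other mucosa groups lay between 4.81 and 4.09, each overlapping its neighbour. Il6r ran from 9.40 in 3-day controls to 6.11 in naive fibroblasts, and its neighbours were apart between 60-day controls (9.27) and 14 days PI (8.75), between 60 days PI (8.74) and scramble siRNA (7.02), and between scramble and gp46 siRNA (6.46). Socs3 ran from 9.03 in naive fibroblasts to 6.74 at 14 days PI, with its 1 gap between 3 days PI (7.85) and 60-day controls (7.33).

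Between scar and naive fibroblasts no member was called, against 3.57% of all probe sets. Il6 signals in scar fibroblasts were 11.2, 10.4, 12.0 and 12.0, a range that held 2 of the 3 naive values, and the interval of the difference ran from 0.614-fold to 3.96-fold. Socs3 signals in scar fibroblasts were 7.79, 8.22, 8.86 and 9.70, against 8.82 to 9.16 in naive fibroblasts. The 4 Il6st probe sets had log2 fold changes of -0.46 to -0.12, and the lowest, 1370957_at, lay below the naive range in all 4 arrays (11.17 to 11.75 against 11.88 to 12.01, adjusted p = 0.0994). Groups did not overlap for 15.9% of all probe sets.

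Of the 52 pathway genes 2 were called in scar fibroblasts. Socs1, an inhibitor of JAKs, was 1.35-fold higher (7.25 to 7.48 against 6.86 to 6.98, adjusted p = 0.0172). Serpina3n was 16.5-fold lower, at 7.04 to 10.00 in the 4 scar cultures and 11.6 to 12.5 in the 3 naive cultures (adjusted p = 0.00458). Its 4 scar values spanned almost 3 log2 units, yet stayed below every naive value.

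The siRNA target was checked first. Serpinh1 1371310_s_at was 23% lower with gp46 siRNA than with scramble siRNA (12.43 to 12.67 against 12.93 to 12.99), without overlap but not called (adjusted p = 1), and 1369009_at had a log2 difference of -0.09. Scramble siRNA cultures were themselves lower in Serpinh1 than untransfected scar cultures, and both probe sets were called by limma. The level was 25.4% lower for 1371310_s_at (adjusted p = 0.00701) and 46.1% lower for 1369009_at (adjusted p = 0.00113). Between gp46 and scramble siRNA no member was called by limma (0% of all probe sets), with 2.58% of probe sets at an unadjusted p under 0.05.

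Il6 signals were 8.26, 9.84 and 10.6 with gp46 siRNA and 8.38, 9.72 and 10.8 with scramble siRNA for replicates 1, 2 and 3. The same-numbered cultures lay within 0.18 of each other, whereas the 3 cultures of a group spanned 5.03-fold and 5.23-fold. The interval of the difference in Il6 was 0.354-fold to 2.60-fold in the main fit, which did not pair cultures by replicate number.

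Il6r was lower in all 3 gp46 siRNA arrays (6.36 to 6.60 against 6.82 to 7.34), a log2 difference of -0.56 (95% interval -1.14 to 0.01) that was not called. Il6st 1370957_at also did not overlap (11.41 to 11.70 against 11.74 to 11.92, log2 difference -0.31), and 7.02% of all probe sets did not. None of the 52 pathway genes was called. The largest log2 difference of each list was -0.38 for the ligand Clcf1, -0.27 for A2m, 0.23 for Socs1, -0.20 for the IL-27 receptor gene Il27ra and -0.19 for Jak3.

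Scramble siRNA against untransfected scar fibroblasts called 2 member probe sets, against 22.8% of all probe sets. Il6st 1371926_at was 1.43-fold higher (adjusted p = 0.0101) and Stat3 1371781_at 34.9% lower (adjusted p = 0.00897). The Il6st arrays did not overlap, as for 29.1% of all probe sets. The other 3 Il6st probe sets had log2 fold changes of -0.09 to 0.36 and the other Stat3 probe set -0.17, none called, so that probe sets of the same gene differed. With these 2 groups fitted alone the Stat3 call was lost (adjusted p = 0.0529), as was the Il6st call without replicate 3 of the scramble cultures (adjusted p = 0.0532), and neither was called in the lognormal-normal model.

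Il6 was at 8.38 to 10.8 in scramble cultures and 10.4 to 12.0 in untransfected ones. The log2 difference was -1.79 (SE 0.62, adjusted p = 0.0561), and the adjusted p ranged from 0.0267 to 0.237 over the alternatives. In limma it was called with array weights (adjusted p = 0.0297), an intensity trend (0.0453) and the dim filter (0.0459), among others. The result was the same as in the main fit in 9 of 17 alternatives. Il6r had a log2 difference of 0.67 (SE 0.25, adjusted p = 0.0709) and Socs3 one of -0.69 (SE 0.36, adjusted p = 0.193).

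Of the 25 targets 9 were lower and 2 higher in scramble cultures, against 10.8% and 11.9% of all probe sets. Junb was 2.56-fold and Vegfa 2.41-fold lower, and Ccnd1, which encodes cyclin D1, was 3.74-fold higher. Of 7 negative regulators 2 were lower and 1 higher, with Socs1 1.88-fold lower, Pias1 1.36-fold higher and Cish 1.25-fold lower. Of 6 other ligands 2 were lower and 1 higher, with Ctf1 1.67-fold lower, Cntf 1.5-fold lower and Ebi3 1.36-fold higher. Of 10 kinases, STATs and adaptors Stat5b was 1.34-fold higher, Jak1 1.34-fold lower and Jak3 1.19-fold lower. Transfection, handling and time in culture cannot be told apart in this comparison.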

How the data were processed

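VF mucosa (23 arrays) and VF fibroblasts (13 arrays) were measured on Affymetrix rat expression arrays. The authors deposited log2 signals summarised and quantile normalised over all 36 arrays with RMA in the affy package, per the labels. The deposited log2 values ranged from 2.72 to 14.74, and the number of arrays limits precision. After removal of 57 control probe sets, 31042 were tested in limma 3.58.1 (R 4.3.3) with lmFit and eBayes and Benjamini-Hochberg adjustment over all of them, called under 0.05. Fits used the 23 mucosa arrays, the 13 fibroblast arrays, or all 36 for fibroblasts against mucosa. Groups followed the labels, which give 5 PI and 2 control arrays at 60 days where the methods give other numbers. Symbols came from the platform annotation, updated by gene number. A gene was represented by its probe set of median mean signal. Every member probe set, up to 3 called genes per list and comparison (or the largest change where none was called), the 2 genes most like each member and Serpinh1 were named. Members and lists were chosen with earlier results of these data known. The study's lognormal-normal mixture model, not installed, was rewritten as an alternative with a posterior of 0.95. Other alternatives were centring, repeated quantile normalisation, a filter on dim probe sets, array weights, an intensity trend, a replicate block, pooled controls, fits of fewer groups and leaving out arrays. Scripts were tested on simulated data. List genes without a probe set of 1 such symbol were not analysed here. Python 3.11.15 searched RefSeq promoters.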

Additional observations from a re-analysis of the deposited data

Results flagged for a closer look

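Of 40 groups of 4 or 5 arrays checked, 5 held a member value standing apart from the rest, where chance gives about 1 in 20 groups. All were Il6st, whose probe sets are not independent. Replicate 4 at 60 days PI was at 12.75 for 1370957_at, with the others at 11.77 to 12.03, and at 11.33 for 1383489_at, with the others at 10.20 to 10.52. Replicate 5 at 3 days PI was at 11.62 for 1373140_at, with the others at 11.22 to 11.30, and at 10.96 for 1383489_at, with the others at 10.14 to 10.27. Both arrays belong to the 3 that deviate together. Replicate 4 at 14 days PI was low for 1383489_at, at 9.72 with the others at 10.47 to 10.58.

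The injury effect differed between time points for Il6, by 1.98 on the log2 scale between 3 and 14 days and by 1.92 between 3 and 60 days, and for Socs3 by 1.16 between 3 and 60 days. Of 15 fits that left out a single array, the Socs3 call was lost in 11 and the Il6 call against 60 days in 1.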

How the results depend on the processing

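Counts of called member probe sets kept within 1.5 times their value in most alternatives. Without the 30% of probe sets of lowest mean, which removes Il6 and Lif in mucosa, 1 was called at 3 days PI, 0 for 3 against 14 days and 1 for 3 against 60 days. This filter kept 8 member probe sets, and 6339, 1863 and 3289 probe sets were called in these comparisons. Those are counts among the probe sets that the filter kept, not among all 31042. With array weights the counts were 4 at 3 days PI, 1 at 14 days, 6 for 3 against 14 days and 4 for 3 against 60 days, beside 45%, 8.63%, 24.5% and 25.4% of all probe sets. Without the 3 deviating arrays they were 4 at 3 days, 1 at 14 days and 3 for 3 against 14 days, beside 31.7%, 2.28% and 12.1%. At 14 days 1 was called with that time point alone, with pooled controls and in the lognormal-normal model (3.91%, 4.25% and 3.89% of all probe sets), and at 60 days 1 with pooled controls (4.3%). For scramble siRNA 1 was called with the 2 groups alone and 0 in the lognormal-normal model, beside 15.7% and 13.1% of all probe sets. With 1 array left out, the counts were 1 to 2 for 3 against 14 days, 0 to 3 for 3 against 60 days, 0 to 1 for scar, and 2 to 4 for scramble siRNA. In the same order, 1276 to 2255, 1640 to 4583, 240 to 1930 and 5169 to 6825 of all probe sets were called. The targets that rose at 3 days PI, 11 in all, numbered 7 to 10 with 1 array left out and 5 in the lognormal-normal model, alternatives added after the data were seen. With 1 array left out, 4960 to 7069 of all probe sets were called at 3 days PI, against 7135 in the main fit.

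Small effects that were never called changed sign. With array weights Il6r at 3 days PI was 0.10, Lif 0.0125 at 3 days PI, -0.0177 for scar and 0.0058 for gp46 siRNA, and Il6 for gp46 siRNA 0.42. With pooled controls Il6r at 3 days PI was 0.0103 and Socs3 at 60 days PI 0.11. With a replicate block Socs3 at 14 days PI was 0.0533 and Lif for scar -0.068. Both values are the differences without the PI or scar arrays that lack a same-numbered partner. With 1 array left out, Il6r at 3 days PI ran from -0.21 to 0.16, Socs3 at 14 days from -0.0619 to 0.0593, Lif at 14 days from -0.11 to 0.0389, Il6 at 60 days from -0.74 to 0.14 and Lif for scar from -0.068 to 0.13. For gp46 siRNA Il6 ran from -0.68 to 0.59, Lif from -0.13 to 0.0598 and Socs3 from -0.13 to 0.24. Among 988 further estimates of smaller member effects 72 changed sign, none of them called. The cause was not tested.

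Replicate numbers are shared by groups, but the correlation of deviations between same-numbered arrays ran from -0.16 to 0.44 and was not above 0.1 for every pair of any comparison, so they were not treated as paired. For gp46 against scramble siRNA it was 0.35, 0.09 and 0.44, so pairing of these cultures remained undecided. With a replicate block 2 member probe sets were called at 3 days PI, beside 7560 of all probe sets. For 3 against 14 days 1 was called and for 3 against 60 days 2, beside 1545 and 3305 of all probe sets. No member was called at 14 days, at 60 days, for 14 against 60 days, for scar or for gp46 siRNA. In the same order, 576, 2, 0, 70 and 0 of all probe sets were called, and scar had 1108 in the main fit. Differences under the block rested only on replicate numbers present in both groups. Arrays without a same-numbered partner, among the PI and scar arrays, did not add to them. Counts and estimates therefore differ from the main fit by these arrays as well as by the block. The gp46 and scramble siRNA arrays all had a partner. The F tests across groups, scramble siRNA against scar and fibroblasts against mucosa were not fitted with the block. Under the block the gp46 siRNA difference in Il6 was -0.06 with an SE of 0.10, against 0.66 without it.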
